A study of Mus musculus with 6 samples.

Results

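The T-box genes *Tbx2*, *Tbx3*, *Tbx5*, *Tbx15*, *Tbx18* and *Tbx20* and the noncoding transcript *Gm2301*, which lies beside *Tbx3*, were examined in RNA-seq data from brain vessels of young mice. They are 7 of the 33460 genes with a deposited value. They were chosen as named genes with the difference between sorted mural cells and vessel fragments already in view, so their values are a description and no test is given for them. The measurements come from *Pdgfrb-eGFP/NG2-DsRed* mice (line Tg(Pdgfrb-eGFP)JN169Gsat/Mmucd) at P6, and every sample carries both reporters. The 3 mural cell libraries are cells positive for both eGFP and DsRed that were isolated by FACS from one sagittal side of 3 brains. The 3 libraries of microvascular fragments come from the other side of the brains, where anti-CD31 beads captured pieces of vessel that contain endothelial cells together with their mural cells. The eGFP is driven by *Pdgfrb* and the DsRed by NG2 (*Cspg4*), so the sort takes in any cell that uses both promoters, smooth muscle cells as well as pericytes.

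T-box factors are transcription factors that share a DNA-binding domain, the T-box, which recognises a short motif with the core GGTGTGA. Some members mainly repress their targets, as *Tbx2* and *Tbx3* do, and others mainly activate them, as *Tbx5* does. The family is best known from the development of the heart and limbs, and *Tbx18* is a known marker of mural cells in many organs, the brain included.

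In the sorted cells *Tbx2*, *Tbx18*, *Tbx15* and *Gm2301* were present at 9.53 to 16.7 times their mean level in the fragments. *Tbx3* was at 1.89 times its level in the fragments, and *Tbx5* and *Tbx20* were listed at 0 in all 6 libraries. Because these are bulk samples, fewer cells of a type and less RNA per cell cannot be told apart.

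The sequences that mark out this set are an exon of *Gm2301* and the stretches just before the starts of *Tbx18*, which was high in mural cells, and *Tbx20*, which was listed at 0. The exon of *Gm2301* is shown because it is the place where its 3 annotated transcripts meet. It lies at chr5:120067839-120067965 of NCBIM37 on the minus strand and holds 127 bases, and the capitals mark the 56 bases, chr5:120067910-120067965, that all 3 transcripts contain. The upstream stretches are the 250 bases before the start of each gene in RefSeq, build GRCm38.p6, at chr9:87731261-87731510 and chr9:24774304-24774553, both on the minus strand. Capitals in the *Tbx18* stretch mark, from left to right, a short T-box site, an E-box and, on the other strand, an RBPJ motif, and the *Tbx20* stretch has no capitals because no motif searched was found in it.

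Gm2301 shared exon: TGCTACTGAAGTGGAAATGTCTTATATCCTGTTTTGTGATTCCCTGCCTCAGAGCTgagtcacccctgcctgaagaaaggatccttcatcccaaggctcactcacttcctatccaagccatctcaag
Tbx18 upstream: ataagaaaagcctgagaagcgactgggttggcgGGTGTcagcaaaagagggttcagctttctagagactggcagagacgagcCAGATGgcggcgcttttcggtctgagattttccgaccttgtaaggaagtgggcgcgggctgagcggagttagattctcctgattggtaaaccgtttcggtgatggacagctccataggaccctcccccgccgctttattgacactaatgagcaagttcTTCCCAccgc
Tbx20 upstream: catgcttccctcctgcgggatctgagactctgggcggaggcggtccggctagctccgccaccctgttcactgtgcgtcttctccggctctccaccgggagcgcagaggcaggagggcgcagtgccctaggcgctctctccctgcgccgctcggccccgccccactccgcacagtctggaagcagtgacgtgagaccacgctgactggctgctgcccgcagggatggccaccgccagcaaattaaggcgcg

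Of the 7 genes, 3 have an entry in the RefSeq promoter table, namely *Tbx18*, *Tbx20* and *Gm2301* under its RefSeq name *Tbx3os1*. Each entry spans 300 bases around the start. The T-box core GGTGTGA was in none of the 3 promoters and in 3.98% of the 32851 promoters of the table. The shorter site GGTGT, which is also contained in the core, was in the *Tbx18* promoter, 217 bases before the start, and in 41.6% of all promoters. The E-box CANNTG lay 168 bases before the *Tbx18* start and occurs in 72.3% of all promoters, and the RBPJ motif TGGGAA lay 10 bases before it and occurs in 25.6%. None of the 3 held the TEAD motif GGAATG, which 14.7% of all promoters hold. The GATA motif AGATAA, present in 11.2%, and the forkhead motif TGTTTAC, present in 3.65%, were not found either. The same holds for the TATA box, TATAAA, which 13.6% of all promoters contain, and for the CArG box, which 1.63% contain. Both strands were searched, and no motif searched was found in the promoter of *Gm2301* or of *Tbx20*. The *Tbx20* promoter was richer in G and C (68.3%, with 26 CpG) than those of *Gm2301* (57.3%, 14 CpG) and *Tbx18* (51.7%, 15 CpG). These matches describe letters in a window and say nothing of binding.

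The values are FPKM, fragments scaled for exon length and for the size of the library, so they can be set side by side between genes. The depth behind them differed between the groups. For genes with 1 transcript, 97.1 to 99.0% of the low values of a library were within 0.05 of a whole number of fragments. By this measure the protein-coding genes held 5.42 to 5.94 M fragments in the fragment libraries but 1.04 to 2.36 M in the mural cell libraries, and mural cell libraries 2 and 3 were the shallowest. The labelled tissue was checked against marker genes. A gene was called enriched or lower at a limma adjusted p of less than 0.05 and a ratio of mean FPKM above 2 or below 0.5. All 10 mural markers were called enriched in the sorted cells at a median ratio of 9.26, and the reporter genes *Pdgfrb* and *Cspg4* had ratios of 9.81 and 6.47. Endothelial markers were still present in the sorted cells, with a median ratio of 0.685 over 12 genes and 1 of them called lower. All 8 microglia markers were called lower, at a median of 8.59% of their level in the fragments. Of the 10 fibroblast markers 5 were called enriched, and *Dpt* was under the filter. The other 4 were not called: *Pdgfra* (ratio 1.59), *Fbln1* (1.62), *Slc6a13* (2.19) and *Ptgds* (0.283). The 10 summed to 104 to 127 FPKM in the fragments and 559 to 726 FPKM in the sorted cells. The highest means in the sorted cells were those of *Col1a2* (221 FPKM), *Col3a1* (213 FPKM) and *Col1a1* (111 FPKM). Since NG2 is also made by oligodendrocyte progenitors, 6 of their markers were examined. None was called, and they summed to 44.4 to 63.5 FPKM in the fragments and to 56.0, 49.5 and 157 FPKM in mural cell libraries 1, 2 and 3. Of these sums *Ptprz1* alone made up 20.8, 20.3 and 108 FPKM in mural cell libraries 1, 2 and 3. Mural cell library 3 also stood apart for the 8 astrocyte markers, which summed to 257, 213 and 752 FPKM in the mural cell libraries and to 301 to 423 FPKM in the fragments, and none of which was called. No fibroblast marker was listed at 0 in every library, and the part of fibroblast RNA in the T-box values was not tested.

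*Tbx2* (ENSMUSG00000000093, chromosome 11, 85646053 to 85655450 on the plus strand) encodes a repressor that holds back differentiation in the developing heart. Its FPKM was 13.8, 12.1 and 9.35 in fragment libraries 1, 2 and 3 and 99.5, 138.0 and 98.2 in mural cell libraries 1, 2 and 3. Every mural cell library lay far above every fragment library, and mural cell library 2 was the highest. The means were 11.7 ± 2.25 and 112 ± 22.6 (SD, n = 3 each), a ratio of 9.53. *Tbx2* has 1 annotated transcript, and the values correspond to about 216, 175 and 149 fragments and 603, 352 and 264 fragments. It was the most abundant T-box gene in every mural cell library.

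*Tbx18* (ENSMUSG00000032419, chromosome 9, 87597635 to 87626095 on the minus strand) is expressed in the epicardium and in mural cells of many organs. Its FPKM was 5.09, 4.60 and 3.74 in the fragments and 43.5, 65.7 and 48.7 in the mural cells. The groups were again far apart, and mural cell library 2 was again the highest. The means were 4.48 ± 0.681 and 52.6 ± 11.6 (SD, n = 3 each), a ratio of 11.8. With 1 annotated transcript, the values rest on about 104, 87 and 78 fragments and 345, 219 and 172 fragments.

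*Tbx15* (ENSMUSG00000027868, chromosome 3, 99044304 to 99158182 on the plus strand) is closely related to *Tbx18* and is known from the skeleton and skin of the trunk. Its FPKM was 3.30, 2.32 and 1.92 in the fragments and 40.5, 22.8 and 29.7 in the mural cells. Here mural cell library 1 was the highest and library 2 the lowest, the reverse of *Tbx18*. The means were 2.51 ± 0.713 and 31.0 ± 8.92 (SD, n = 3 each), a ratio of 12.3. Within a library, the FPKM of *Tbx18* was 1.54, 1.98 and 1.95 times that of *Tbx15* in the fragments and 1.08, 2.89 and 1.64 times in the mural cells. If all fragments came from the longest of its 3 annotated transcripts, there were about 51, 33 and 30 of them in the fragment libraries and 241, 57 and 79 in the mural cell libraries.

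*Tbx3* (ENSMUSG00000018604, chromosome 5, 120120678 to 120134733 on the plus strand) is the closest relative of *Tbx2* and, like it, mainly a repressor. Its FPKM was 33.9, 48.2 and 31.9 in the fragments and 57.4, 100.1 and 57.6 in the mural cells. The groups did not overlap, but mural cell libraries 1 and 3 were close to the highest fragment library. The means were 38.0 ± 8.89 and 71.7 ± 24.6 (SD, n = 3 each), a ratio of 1.89. Without mural cell library 2 the ratio was 1.51, and without fragment library 2 it was 2.18. In contrast to the other T-box genes of the set, *Tbx3* was thus also abundant in the fragments, where it exceeded *Tbx2* in each library.

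*Tbx5* (ENSMUSG00000018263, chromosome 5, 120284672 to 120335227 on the plus strand) and *Tbx20* (ENSMUSG00000031965, chromosome 9, 24527648 to 24578746 on the minus strand) are required in the developing heart. Both were listed at 0 in every library. A level of 3 fragments on the *Tbx5* transcript would have been an FPKM of 0.172 to 1.08, depending on the library, and on the longest *Tbx20* transcript 0.168 to 1.05, so levels below these were not detectable. A value of 0 can also be a failed estimate. Of 48 genes that every cell uses, none was at 0 in any library, and their lowest FPKM was 3.04.

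*Gm2301* (ENSMUSG00000087516, chromosome 5, 120061272 to 120121374 on the minus strand) is annotated as a processed transcript without a coding region and is named *Tbx3os1*, an opposite-strand transcript of *Tbx3*, in RefSeq. Its FPKM was 3.02, 3.31 and 5.47 in the fragments and 42.0, 108.7 and 46.0 in the mural cells. Mural cell library 2 stood at 2.47 times the mean of the other mural cell libraries, the most uneven of the set. The means were 3.93 ± 1.34 and 65.6 ± 37.4 (SD, n = 3 each), a ratio of 16.7, and without mural cell library 2 the ratio was 11.2. Of the 14801 genes tested, namely those whose FPKM reached 1 in 3 or more libraries, 0.101% had a higher ratio.

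The number of fragments behind *Gm2301* depends on which of its transcripts was present, since these are short. If all came from the longest transcript of 1008 bases, there were about 11, 11 and 21 fragments in the fragment libraries and 60, 65 and 29 in the mural cell libraries. If all came from the transcript of 282 bases, there were 1, 1 and 2 and 6, 7 and 3. The FPKM of *Gm2301* is therefore less precise than that of the T-box genes around it.

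**Figure D1:**
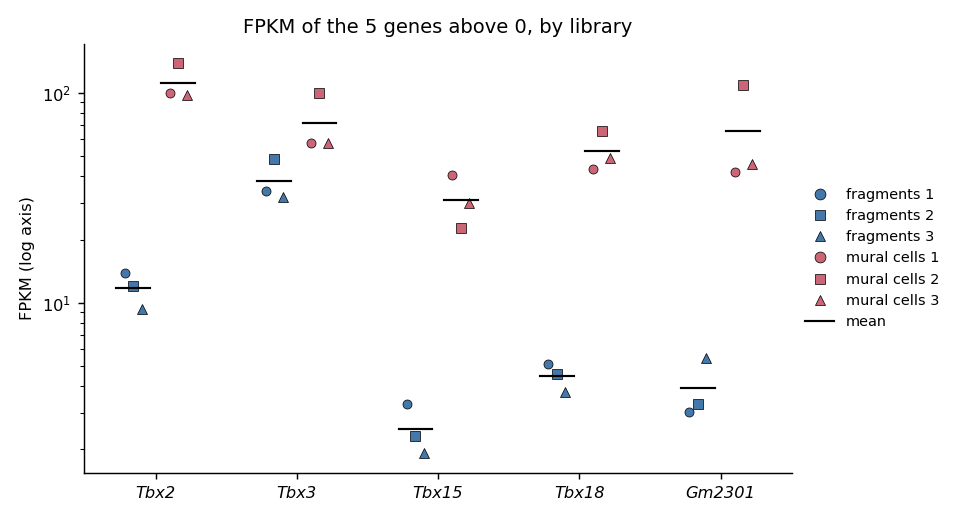
FPKM (log axis) of *Tbx2*, *Tbx3*, *Tbx15*, *Tbx18* and *Gm2301* in each of the 3 fragment libraries (blue) and 3 mural cell libraries (red), with the group mean as a line. The groups are far apart for 4 genes and close for *Tbx3*, and mural cell library 2 (square) is the highest of its group for each gene but *Tbx15*. That library is also the highest of its group for 53.5% of the 952 genes called enriched and for 33.8% of all genes tested.

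Of the 7 genes, 5 passed the filter on low values (FPKM of 1 or more in 3 or more libraries), and each of the 5 would have passed in the fragment libraries alone. Of these, 4 had a mean FPKM in the mural cells of more than 2 times that in the fragments. All 5 had every mural cell library above every fragment library, as 16.5% of the genes tested did. The genes were chosen on this contrast, so nothing is read from these counts.

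By mean level in the mural cells the order was *Tbx2*, *Tbx3*, *Gm2301*, *Tbx18* and *Tbx15*. The ranges of *Tbx2* and *Tbx3*, of *Tbx3* and *Gm2301*, and of *Gm2301* and *Tbx18* overlapped between libraries, and only *Tbx18* and *Tbx15* were separate neighbours. In the fragments the order was *Tbx3*, *Tbx2*, *Tbx18*, *Gm2301* and *Tbx15*. There *Tbx3* stood apart from *Tbx2*, and *Tbx2* from *Tbx18*, while *Gm2301* overlapped with *Tbx18* and with *Tbx15*.

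The makeup of the family differed between the groups. Summed over the 17 T-box genes (the 6 T-box genes of the set and 11 others), the FPKM was 139, 145 and 120 in the fragments and 297, 381 and 280 in the mural cells. *Tbx2*, *Tbx15* and *Tbx18* together made up 13.8% ± 1.89 of this sum in the fragments and 61.4% ± 1.89 in the mural cells (SD, n = 3 each). *Tbx3* made up 28.1% ± 4.61 and 22.1% ± 3.68, *Mga*, which encodes a large partner of MAX with a T-box, 30.4% ± 3.57 and 10.3% ± 0.832, and *Tbx1* 16.4% ± 2.01 and 3.76% ± 1.37. Among these genes the share of *Tbx3* differed least between the groups.

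**Figure D2:**
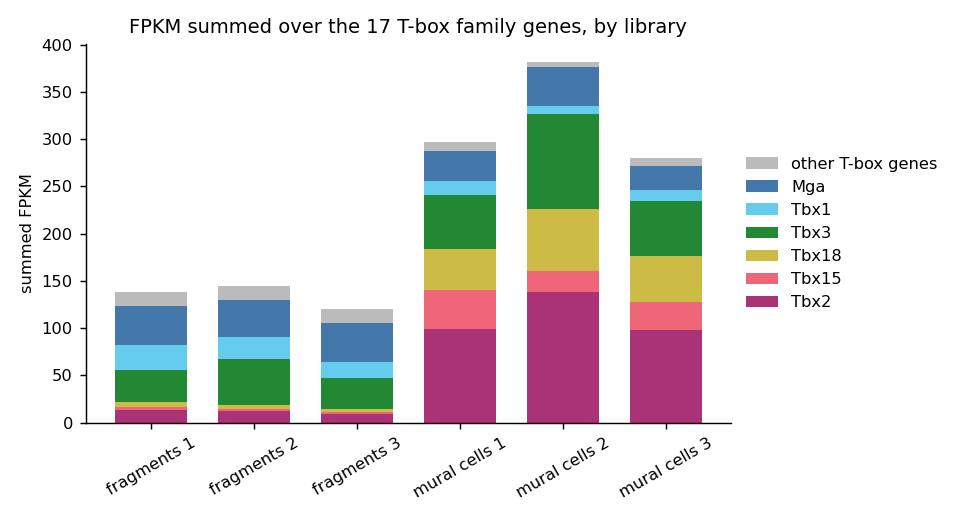
Summed FPKM of the 17 T-box family genes in each library, stacked by gene. The mural cell bars reach 280 to 381 FPKM and are mostly *Tbx2*, *Tbx3*, *Tbx18* and *Tbx15*, and the fragment bars reach 120 to 145 FPKM and are mostly *Mga*, *Tbx3* and *Tbx1*.

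To set the genes against the mural cell content of a library, each was divided by *Pdgfrb*, the gene that drives the eGFP, in the same library. *Tbx2* stood at 0.252, 0.258 and 0.270 of *Pdgfrb* in the fragments and at 0.216, 0.291 and 0.245 in the mural cells, and the groups overlapped. *Tbx18* (0.0997 ± 0.00780 and 0.118 ± 0.0223) and *Tbx15* (0.0550 ± 0.00535 and 0.0700 ± 0.0202) also overlapped between the groups, as did *Gm2301* (0.0947 ± 0.0555 and 0.145 ± 0.0739; SD, n = 3 each). *Tbx3* did not: it stood at 0.619, 1.03 and 0.923 of *Pdgfrb* in the fragments and at 0.125, 0.211 and 0.144 in the mural cells. The FPKM of *Gm2301* relative to *Tbx3* was 0.0891, 0.0685 and 0.171 in the fragments and 0.731, 1.09 and 0.800 in the mural cells, again without overlap. The overlap of the 4 genes holds for *Pdgfrb*, which the cells were sorted on and which had a ratio of 9.81. *Cspg4*, the gene of the other reporter, had a ratio of 6.47, below the 9.53 to 16.7 of these 4 genes. Set against the mean of *Cspg4*, the 4 would thus stand higher in the mural cells. These ratios come from the contrast used to choose the genes and carry no test.

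**Figure D3:**
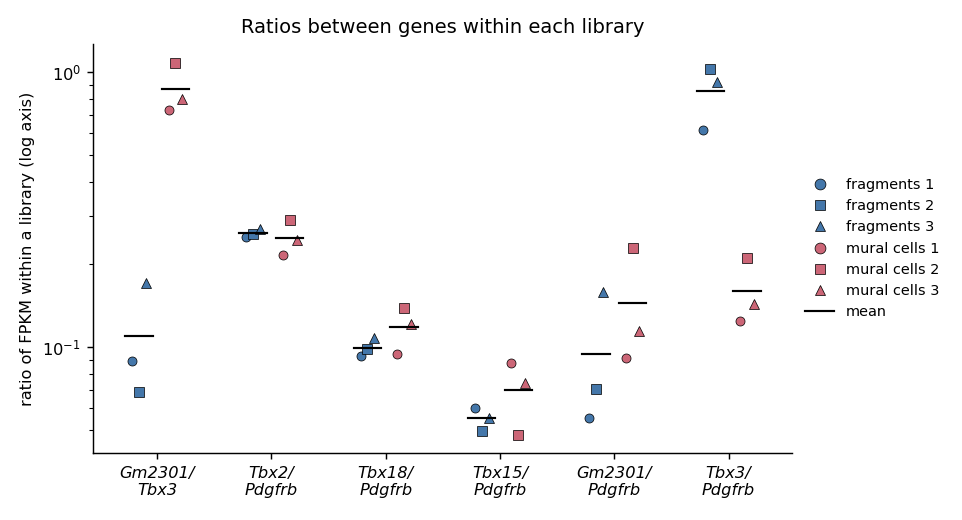
Ratio of FPKM (log axis) between pairs of genes within each fragment library (blue) and mural cell library (red), with the group mean as a line. *Tbx2*, *Tbx18*, *Tbx15* and *Gm2301* relative to *Pdgfrb* overlap between the groups, and *Tbx3* relative to *Pdgfrb* and *Gm2301* relative to *Tbx3* do not. No mural cell marker other than *Pdgfrb* is shown as divisor, and the overlap depends on that choice.

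The position of *Gm2301* was checked in the NCBIM37 annotation. It runs on the strand opposite to *Tbx3*, head to head with it, and the gene spans overlap by 697 bases at the start of *Tbx3*. The other 59406 bases of *Gm2301* lie before *Tbx3*, away from *Tbx5*. *Tbx5* begins 149939 bases after the end of *Tbx3* and 163298 bases from the start of *Gm2301*. The 3 annotated transcripts of *Gm2301* have 9 different exons. All 7 of their introns, counted per transcript, begin with GT and end with AG on the minus strand, the usual bases of splice sites.

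Of the transcripts only that of 282 bases reaches *Tbx3*. It begins 696 bases inside *Tbx3*, with a first exon at chr5:120121260-120121374 that lies wholly within an untranslated part of the *Tbx3* exons. The others, of 490 and 1008 bases, begin 43076 and 43287 bases before *Tbx3*. In all, 115 of the 1353 exon bases of *Gm2301* (8.50%) and 2.14% of the 5365 exon bases of *Tbx3* are shared on opposite strands. All 115 belong to the transcript of 282 bases, of which they are a much larger part. The library kit keeps the strand, but whether the counting used it is not given in the sources used here. Reads within the 115 bases could then belong to either gene, and the remaining exons of *Gm2301* overlap no annotated exon of *Tbx3*.

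**Figure D4:**
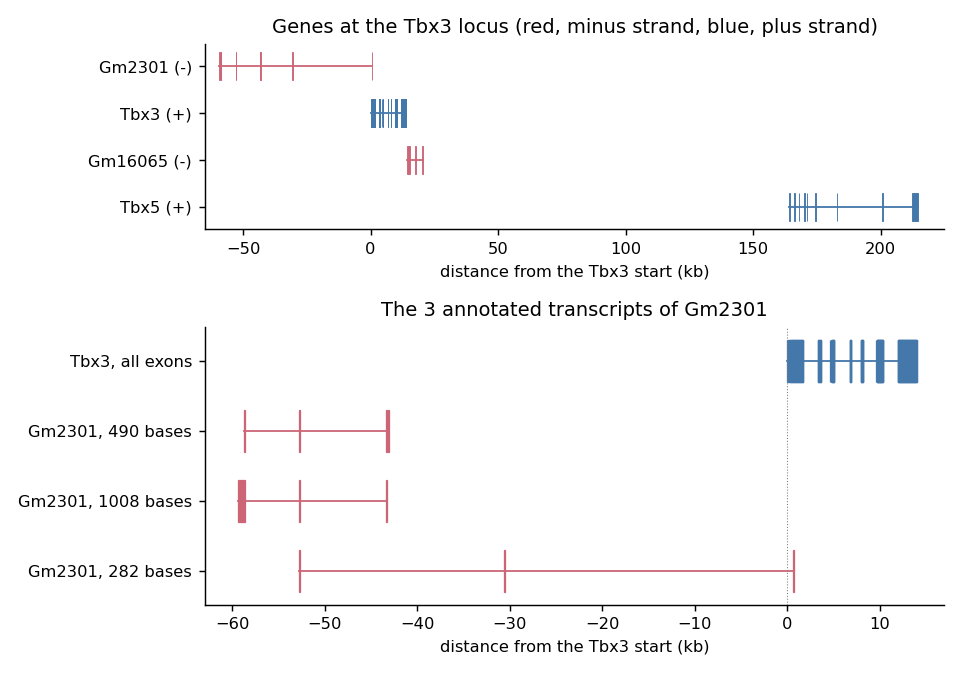
Exons (boxes) and introns (lines) of genes at the *Tbx3* locus, by distance from the *Tbx3* start in kb, with minus-strand genes in red and plus-strand genes in blue; the lower panel shows each transcript of *Gm2301*. *Gm2301* lies on the far side of *Tbx3* from *Tbx5*, and 1 of its 3 transcripts reaches into the first part of *Tbx3*.

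Reads could also be shared between T-box genes if their sequences were alike. The longest run of identical bases between transcripts of different T-box genes of the set, over 15 pairs, was 23 bases, between *Tbx15* and *Tbx18*. It is shorter than a read.

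The genes with the profile most like each one were sought over all genes tested, by the root mean square difference of log2(FPKM + 1) over the 6 libraries after each gene was centred on its own mean. For *Tbx2* these were *Notch3*, a Notch receptor of mural cells (0.0676), *Gucy1a3*, a subunit of the nitric oxide receptor (0.0769), and *Rarres2*, which encodes chemerin (0.0953). For *Tbx18* they were *Ccdc3* (0.0744), *Notch3* (0.0854) and *Aspn*, a matrix proteoglycan (0.0926). *Tbx2* and *Tbx18* came next in each other's order, at 0.0967.

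For *Tbx15* the closest were *Kcnj8*, the pore of a KATP channel (0.178), *Ano1*, a chloride channel (0.218), and *Anpep*, aminopeptidase N (0.219). For *Gm2301* they were *Rasl12* (0.351), *Slc2a4*, a glucose transporter (0.358), and *Ccdc3* (0.402), all at a larger difference than for the other genes. For *Tbx3* they were *3000002C10Rik* (0.0765), *Ndufs5*, a subunit of respiratory complex I (0.116), and *Nckap5* (0.118), none of which is a mural marker listed here. Mean FPKM of *3000002C10Rik* was only 2.08 in the mural cells and 0.749 in the fragments, a ratio of 2.77. At such levels the 1 added before the logarithm shrinks a difference. The points are the same 6 libraries in each case, and a like difference between the groups is enough to bring a pair of profiles close.

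The other 11 T-box genes were taken as the rest of the family, and the difference between the groups was tested for them with limma over all 14801 genes. Of the 11, 5 passed the filter and could be called, and none was. Over all genes tested 6.43% were called enriched and 10.1% lower, and 5 genes are too few to show a difference from these shares. Of the 5, 3 had an unadjusted p under 0.05, *T*, *Tbx1* and *Tbx4*, as did 35% of all genes tested. The median ratio of the 5 was 0.537, against 0.943 over all genes tested.

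*Tbx1*, known from the pharyngeal arches, had an FPKM of 25.7, 23.5 and 17.5 in the fragments and 14.5, 8.52 and 11.7 in the mural cells. Every mural cell library lay below every fragment library, as for 24.5% of all genes tested, but the ratio of 0.521 (adjusted p = 0.0353) missed the limit of 0.5. *Tbx4*, a gene of hindlimb and lung that lies 44474 bases after *Tbx2*, was also lower in every mural cell library, at 3.63 ± 1.09 against 6.76 ± 1.35 FPKM (SD, n = 3 each, adjusted p = 0.0993). *Tbx2*, at a ratio of 9.53, and its neighbour *Tbx4*, at 0.537, thus lay on different sides of 1.

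*T*, which encodes brachyury, was at 3.59, 3.69 and 2.27 FPKM in the fragments and at 2.30, 0 and 0 in the mural cells (adjusted p = 0.0809), and the groups overlapped. Without mural cell library 1, *T* (adjusted p = 0.00664) and *Tbx1* (adjusted p = 0.0261) were both called lower. *Tbx6* (2.97 ± 1.10 and 1.97 ± 2.14 FPKM, adjusted p = 0.472) and *Mga* (40.7 ± 1.12 and 33.1 ± 7.78 FPKM, adjusted p = 0.256; SD, n = 3 each) did not pass the test. *Tbr1*, *Eomes*, *Tbx10*, *Tbx19* and *Tbx21*, at up to 2.10 FPKM in any library, were under the filter, and *Tbx22* was listed at 0 throughout.

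A list of 41 known partners, co-repressors, developmental companions and reported targets of T-box factors was examined next. Of these 23 passed the filter, of which 5 were called enriched and 1 lower and 17 were not called, against 6.43% enriched and 10.1% lower of all genes tested. Their median ratio was 1.10, and that of all genes tested was 0.943. Among the 13 partners, 2 were called enriched and 1 lower, and 5, among them *Gata4*, *Nkx2-5* and *Hand2*, the heart partners of *Tbx5* and *Tbx20*, were listed at 0 in every library.

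*Myocd*, the cofactor of SRF that drives smooth muscle genes, was at 2.01, 1.95 and 1.10 FPKM in the fragments and at 14.99, 19.2 and 28.6 FPKM in the mural cells. The ratio was 12.4 (log2 fold change 3.00 on the log2(FPKM + 1) scale, SE 0.30, adjusted p = 0.000604).

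*Gata6*, a zinc finger factor, went the other way, with 1.68, 2.61 and 2.23 FPKM in the fragments and 0.377, 0 and 0 in the mural cells (adjusted p = 0.0109). Without any 1 fragment library it was under the filter. *Srf* and *Mef2c* did not pass the test. The endothelial marker sum was 2322 to 2707 FPKM in the fragments and 1700 to 2198 in the mural cells, and its part in the *Gata6* value was not tested.

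Of the 5 epicardial and mural progenitor genes, *Foxd1* and *Foxc1*, both forkhead factors, were called enriched. *Foxd1* was at 3.19, 5.12 and 3.14 FPKM in the fragments and 31.4, 35.6 and 35.4 in the mural cells, a ratio of 8.95 (adjusted p = 0.000193). *Foxc1* was at 51.1, 47.1 and 37.4 FPKM in the fragments and 110, 106 and 100.4 in the mural cells, a ratio of 2.33 (adjusted p = 0.00111). Like *Tbx3*, *Foxc1* was abundant in both groups. *Wt1*, a gene of the epicardium where *Tbx18* is known, was listed at 0 in every library, *Tcf21* was under the filter, and *Aldh1a2* did not pass the test.

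Among the 16 reported targets 1 was called, the growth factor gene *Tgfb2*. It was at 26.5, 23.3 and 26.0 FPKM in the fragments and 40.5, 48.5 and 68.5 in the mural cells, a ratio of 2.08 that lies just past the limit (adjusted p = 0.0117). The call was lost without fragment library 2 (adjusted p = 0.0518), and without mural cell library 3 the gene no longer passed the fold limit. *Cdkn1a*, a cell cycle inhibitor that *Tbx2* and *Tbx3* are known to repress, was at 69.1, 36.5 and 58.9 FPKM in the fragments and 27.0, 34.9 and 15.6 in the mural cells. Its ratio was 0.471, and it did not pass the test (adjusted p = 0.0571), but it was called lower without fragment library 2 (adjusted p = 0.0443) or mural cell library 2 (adjusted p = 0.0348). *Gja1*, which encodes connexin 43, was at 95.0 ± 18.7 and 101 ± 34.1 FPKM (SD, n = 3 each, adjusted p = 0.913).

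None of the 7 co-repressors was called. The most abundant were *Ncor1* (171 ± 7.76 and 187 ± 11.7 FPKM, adjusted p = 0.447), *Tle3* (135 ± 3.61 and 148 ± 25.04 FPKM, adjusted p = 0.598) and *Hdac1* (86.0 ± 28.9 and 67.4 ± 8.08 FPKM, adjusted p = 0.392; SD, n = 3 each). *Tle1* at a ratio of 1.49 (adjusted p = 0.00944) and *Tle4* at 0.513 (adjusted p = 0.0172) passed the test but not the fold limits, and *Tle4* was called lower without mural cell library 1 (adjusted p = 0.00901). These were named after their values were seen, as were *Cdkn1a* and the genes listed at 0.

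**Figure D5:**
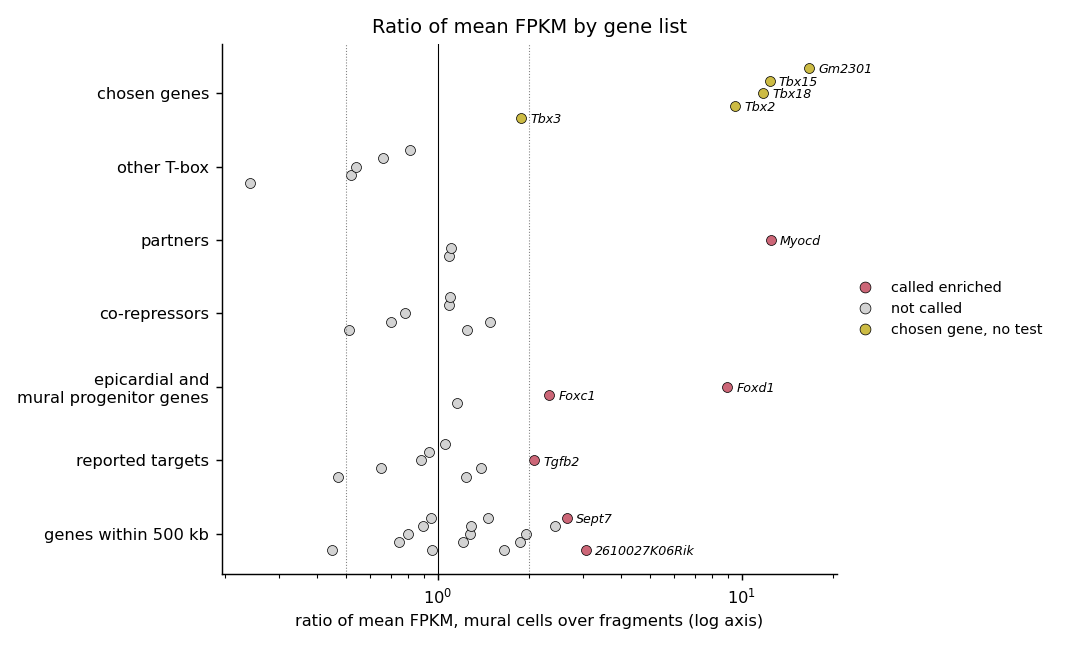
Ratio of mean FPKM, mural cells over fragments (log axis), for the genes shown that passed the filter, by list, with dotted lines at 0.5 and 2. *Gata6* is left out because its mural cell values are near 0, and *Tbx4* is shown with the other T-box genes. *Myocd*, *Foxd1*, *Foxc1*, *Tgfb2*, *Sept7* and *2610027K06Rik* were called enriched.

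All other annotated genes within 500 kb of the 7 genes numbered 58, of which 17 passed the filter. Of these 2 were called enriched, *2610027K06Rik* and *Sept7*, and none lower, against 6.43% and 10.1% of all genes tested. The median ratio was 1.28, against 0.943 over all genes tested. Among the 12 protein-coding genes that passed the filter, 1 was called.

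*2610027K06Rik* is a noncoding transcript on the minus strand of chromosome 11, which begins 328 bases before the start of *Tbx2* on the plus strand, runs away from it and shares no exon base with it. Like *Gm2301* with *Tbx3*, it lies head to head with a T-box gene. It was at 1.71, 1.52 and 1.37 FPKM in the fragments and at 5.33, 5.45 and 3.38 FPKM in the mural cells, a ratio of 3.08. It passed the test (log2 fold change 1.15 on the log2(FPKM + 1) scale, SE 0.28, adjusted p = 0.0227), but its adjusted p was 0.0528 with the replicate number as a block and 0.0511 to 0.116 without mural cell library 2 or any 1 of the fragment libraries. *Bcas3*, the coding gene on that side of *Tbx2*, lies on the plus strand, and its span overlaps that of *2610027K06Rik*. *Bcas3* had a mean of 28.8 FPKM in the fragments and 47.6 FPKM in the mural cells, a ratio of 1.65 (adjusted p = 0.0254). Whether the counting used the strand is not given, and the part of *Bcas3* reads in the *2610027K06Rik* value was not tested. *Gm11444*, on the other side of *Tbx2*, was under the filter.

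*Sept7* is a septin gene that lies 477458 bases from *Tbx20*, on the side of the *Tbx20* start. It was at 86.5, 77.4 and 75.1 FPKM in the fragments and at 222, 241 and 173 FPKM in the mural cells. The ratio was 2.66 (adjusted p = 0.000734), while *Tbx20* itself was listed at 0. At the *Tbx3* locus, *Gm16065*, a noncoding gene 371 bases after *Tbx3*, was at up to 0.750 FPKM in the fragments and at 0 in each mural cell library, and *Gm16063* and *Gm16064*, within the span of *Gm2301*, were under the filter. No exon base of *Gm2301* is shared with these last genes. *Wars2*, which ends 1195 bases before *Tbx15*, had a ratio of 1.46 (adjusted p = 0.595). The neighbour of *Tbx18* that passed the filter, *4922501C03Rik*, lies 447264 bases beyond the end of *Tbx18*. It had a ratio of 1.95 (adjusted p = 0.185) and was called enriched only without mural cell library 3 (adjusted p = 0.0495). *Dpy19l2*, 26911 bases beyond the end of *Tbx20*, was under the filter.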

How the data were processed

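RNA of 6 libraries was sequenced. By the methods and the submitters' notes, TopHat2 2.0.4 was used for alignment of paired-end reads (build NCBIM37), Picard 1.92 to take out duplicates and Cufflinks 2.2.1 for quantification. What the authors deposited for each library is an FPKM per Ensembl gene, without pooling. Removing duplicates and the low number of fragments in mural cell libraries limit the precision of low values.

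Identical repeats of 9 identifiers were dropped, which left 33460 genes, 33116 of them in the GENCODE annotation of NCBIM37. The chosen genes and the gene lists were picked with earlier results of these data known. log2(FPKM + 1) was fitted with limma 3.58.1 (R 4.3.3) with an intensity trend over the 14801 genes whose FPKM reached 1 in 3 or more libraries. P-values were adjusted by Benjamini-Hochberg, and calls needed an adjusted p under 0.05 and a ratio of mean FPKM above 2 or under 0.5. The fit was also run on simulated data, and the outcome is not given here. The p-values measure the spread between 3 libraries a group. Other steps used Python 3.11.15, pandas 2.3.3 and NumPy 2.4.6. The genes named are the 7 chosen, all other T-box genes, the partners and targets called and the 4 most abundant not called, the neighbours called or nearest, the 3 closest profiles, and the reporter genes, with exceptions stated. The list counts cover every gene of a list, but 1 gene of the partner list is not reported here. Fragments were computed with an assumed fragment length of 200 bases. Alternatives were another pseudocount, scaling, filter, threshold, trend or window, the replicate block, and leaving out each library.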

Additional observations from a re-analysis of the deposited data

How the results depend on the processing

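The ratios of the chosen genes are a description, since the genes were chosen on this contrast. Leaving out 1 library at a time gave ratios of 8.41 to 10.4 for *Tbx2*, 10.3 to 12.8 for *Tbx18*, 10.4 to 14.6 for *Tbx15*, 1.51 to 2.18 for *Tbx3* and 11.2 to 20.7 for *Gm2301*. Over all genes 952 were enriched and 1493 lower. Lower genes numbered 948 at an FPKM of at least 5 and 845 at an adjusted p under 0.01, and leaving out 1 library gave 691 to 949 enriched and 607 to 1733 lower, with the fewest lower without fragment library 3. Quantile normalization moved the median log2 fold change by 0.12 and gave 1185 enriched and 1105 lower.

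Among the other T-box genes, 1 (*Tbx10*) was lower without a filter, and 0 to 2 were lower when 1 library was left out. Among partners and targets, 0 were lower at an FPKM of at least 5 or an adjusted p under 0.01 and 2 without a filter, and leaving out 1 library gave 3 to 4 enriched and 0 to 2 lower. *Tgfb2* was called in 12 of the 16 fits, *Gata6* in 11, which was not tested without any 1 fragment library, and *Myocd*, *Foxc1* and *Foxd1* in all 16. Near the chosen genes, 1 was enriched at an FPKM of at least 5, at an adjusted p under 0.01, without a filter, with the replicate block and within 200 kb. Within 1000 kb 2 were lower, and leaving out 1 library gave 1 to 3 enriched and 0 to 1 lower. The cause of these changes was not tested.

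The labels number the libraries 1 to 3 in each group, and each brain gave both kinds of sample, but nothing says that the numbers mark the same brain. Deviations of same-numbered libraries correlated at 0.0818, 0.0203 and 0.0454 across genes, each the highest for its mural cell library. All were small, and mural cell library 2 correlated at 0.0102 with fragment library 3, so the values do not settle the pairing. With the replicate block 900 genes were enriched and 1344 lower, and the mean of paired ratios was 9.71 for *Tbx2* and 18.4 for *Gm2301*. The mural cell libraries held 1.04 to 2.36 M fragments on protein-coding genes and the fragment libraries 5.42 to 5.94 M, so 1 fragment was worth a higher FPKM in the mural cells.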
